A study of Homo sapiens with 6 samples.

Results

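The solute carrier (SLC) sgRNAs of a pooled knockout screen were taken as every listed sgRNA whose target symbol begins with SLC and a digit, or with SLCO. There were 2081 such sgRNAs against 382 symbols, which is 1.94% of the 107237 sgRNAs in the count table. The rule used the symbols alone and no measured value. Of the 382 symbols, 215 had 6 listed sgRNAs, 131 had 5, 29 had 4, 6 had 3 and 1 had 2. By symbol, 371 were current RefSeq names, 8 were older names and 3 were not matched. The older names SLC22A20 and SLC26A10 now stand as SLC22A20P and SLC26A10P, the form given to pseudogenes, and were counted with the carriers. SLC24A6, with 5 sgRNAs, is an older name of SLC8B1, which was listed separately with 3 sgRNAs. The pattern also took in 6 other symbols that name no carrier: the scaffold proteins SLC9A3R1 and SLC9A3R2, the regulator SLC2A4RG, the adaptor SLC4A1AP and the neighbouring or antisense transcripts SLC7A6OS and SLC22A18AS.

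The host cells were MDA-MB-231, a human triple-negative breast cancer line, made to express Cas9 by lentiviral transduction. They carried the human GeCKO v2 library at a multiplicity of infection of 0.3 and were selected with 1 µg/mL puromycin for 7 days. Afterwards they received either the vehicle DMSO or 10 µM erlotinib, an EGFR kinase inhibitor, for 7 days, and the sgRNAs were amplified from genomic DNA of the cells that remained. Each condition had 3 libraries, DMSO 1 to 3 and erlotinib 1 to 3. The study calls its biological replicates separately prepared cultures in general terms, but neither it nor the labels say so of these libraries, so all p-values measure the spread between them, which may be technical. The reverse primer differed between the conditions, so condition and primer cannot be told apart, while libraries of the same number shared a forward primer, and no library from before treatment was analysed here.

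Library totals were 1574743 to 4263494 reads in DMSO and 1773235 to 3332895 in erlotinib. An abundance is given as counts per 1000000 reads of the library (CPM), and a count of 0 allows up to 3 reads, or 0.704 to 1.91 CPM in the DMSO libraries and 0.900 to 1.69 CPM in the erlotinib libraries. These limits, and the intervals given for shares of reads, cover counting error only, since amplicon reads are not independent molecules. A read count measures how much of the amplified DNA carried an sgRNA, so fewer cells with the sgRNA and poorer recovery of it cannot be told apart.

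Solute carriers are membrane proteins that move amino acids, sugars, nucleotides, vitamins, ions and drugs across the plasma membrane and the membranes of organelles. They are numbered by sequence family. SLC25 proteins exchange metabolites across the inner mitochondrial membrane, SLC1, SLC7 and SLC38 carry amino acids, SLC30 moves zinc out of the cytosol and SLC39 moves it in, and SLCO proteins carry large organic anions. Proliferating cancer cells depend on several of them for glucose, glutamine, leucine, lactate, phosphate and metal supply, while members of SLC22, SLC47 and SLCO move many drugs.

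The sgRNAs on which the erlotinib results turned are shown first. Each is the deposited protospacer, written 5′ to 3′ without the PAM, with the 12 PAM-proximal bases (the seed) in capitals. The first was the one SLC sgRNA read in all 3 erlotinib libraries, and the next 3 were read in 2 of them. For SLC22A18AS, 1 of these 2 libraries held a single read, which cannot be told from 0.
SLC4A7: cagagagtTCAGTTTATCCT
SLC22A18AS: gaactcacGACCCCCGACAG
SLC38A6: gctgctgaCAGTTGCTCTCC
SLC6A2: tgccggcgTGAACTTGTACT
The following 6 carried most reads of their gene in a single erlotinib library.
SLC35A1: attattcaAGTTATACTGCT
SLC38A8: agtactgcACGGTGATGACC
SLC47A2: tgtaggagTTGGTTTGTCTT
SLC6A5: tagtgtcaAGTCCAAGAGTG
SLC7A6: ggcaatgaGCGCTACGACCT
SLC25A41: gcccgtgcGAGACACCGCCC
The next 2 were read under erlotinib and in no DMSO library.
SLC25A23: tcttgcttTGAGAACTCGTC
SLC30A4: tctgggtgTGAACGTAACCA
The last 4 were among the most abundant SLC sgRNAs read in all 3 DMSO libraries, and none of them had a read under erlotinib.
SLC27A6: ttgagtgaAATTACACCTTG
SLC24A4: accaggatCTGTGCAGTTCT
SLC44A4: ctcttcctGCTCTTCATTCT
SLC39A5: tcctgggaCCTCGTCTACTA

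In DMSO, 861, 702 and 766 of the 2081 SLC sgRNAs had at least 1 read in libraries 1, 2 and 3. In erlotinib, 38, 31 and 36 had one. As shares these were 37.3% ± 3.84 (SD, n = 3) and 1.68% ± 0.173 (SD, n = 3), a ratio of 22.2, and the lowest DMSO library lay far above the highest erlotinib library. The ratio stayed between 20.97 and 23.2 when any library was left out. The share of all reads held by SLC sgRNAs was closer, at 2.05% ± 0.143 in DMSO and 1.58% ± 0.361 in erlotinib (SD, n = 3). The conditions thus differed more in how many different SLC sgRNAs were read than in the reads the class received.

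Detection of SLC sgRNAs was near that of the other 104158 targeted sgRNAs. In DMSO the SLC share was above the other share in each library, at 41.4% against 39.05%, 33.7% against 33.4% and 36.8% against 34.5%. In erlotinib it was below in each, at 1.83% against 2.06%, 1.49% against 1.77% and 1.73% against 2.02%. The SLC share divided by the other share was 1.05 ± 0.0311 in DMSO and 0.861 ± 0.0241 in erlotinib (SD, n = 3). In sgRNAs the erlotinib gap was small: at the share of the other sgRNAs, 42.8, 36.9 and 42.1 SLC sgRNAs would have been read. No test was run on this ratio, and an exact permutation test of 3 against 3 libraries cannot go below p = 0.1. The non-targeting sgRNAs were read more often than either class, with 56.9% ± 4.40 detected in DMSO and 3.93% ± 0.504 in erlotinib (SD, n = 3).

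Few SLC sgRNAs were read in all 3 DMSO libraries. Of the 2081, 610 had no DMSO read, 784 were read in 1 DMSO library, 516 in 2 and 171 in all 3. Of those read at all in DMSO, 53.3% came from 1 library alone, beside 55.8% of the other targeted sgRNAs. In erlotinib, 92 SLC sgRNAs were read in 1 library, 5 in 2 and 1 in 3, so 98 were read at all. Among the 5, those against SLC22A18AS, SLC30A8 and SLCO5A1 had only 1 or 2 reads in the second library, within the limit of a 0 count. Of the 98, 77 were also read in DMSO and 21 were not. The share read under erlotinib was 3.44% of the SLC sgRNAs with no DMSO read, 3.70%, 6.20% and 9.36% of those read in 1, 2 and 3 DMSO libraries. The other targeted sgRNAs gave 3.78%, 4.97%, 6.85% and 9.22%.

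Reads were concentrated in far fewer SLC sgRNAs in erlotinib than in DMSO. The 5 most abundant SLC sgRNAs of a library held 2.81% to 3.15% of its SLC reads in DMSO and 67.3% to 82.2% in erlotinib. The median detected SLC sgRNA had 94, 48 and 32 reads in DMSO 1, 2 and 3. In erlotinib 1, 2 and 3 it had 95.5, 256 and 310 reads. The highest SLC sgRNA count in any DMSO library was 611, whereas the highest in the erlotinib libraries were 6541, 10765 and 12368.

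Detection also varied with the base composition of the sgRNA. The 203 SLC sgRNAs with 70% GC or more were detected at 32.02% ± 3.41 in DMSO and the 468 with 40% to 45% GC at 39.2% ± 4.09 (SD, n = 3). The other protein-coding sgRNAs gave 32.4% ± 3.24 and 36.4% ± 3.00 in the same GC classes. In erlotinib the SLC values were 0.657% ± 0.752 and 2.49% ± 0.617, and those of the other protein-coding sgRNAs were 1.69% ± 0.104 and 2.04% ± 0.192. The SLC value at 70% GC or more rested on few sgRNAs and ranged from 0% to 1.48% between erlotinib libraries. SLC sgRNAs averaged 52.6% GC and the other protein-coding sgRNAs 51.97%. The part of GC content in any difference between families was not tested.

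Some SLC sgRNAs were not independent in sequence. Runs of 12 or more bases, read on either strand, were shared by 136 pairs of sgRNAs against the same gene, in 126 genes, and by 35 pairs against different symbols. The pairs between genes included the close relatives SLC25A51 and SLC25A52, SLC2A3 and SLC2A14, and SLCO1B1 and SLCO1B3. A pair listed for SLC22A24, a steroid conjugate carrier, was the same 20 bases on opposite strands.
SLC22A24 first: gtcacgatCTATGACAATAA
SLC22A24 second: ttattgtcATAGATCGTGAC
Neither was read in any library.

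All 382 SLC symbols had at least 1 read in DMSO, of which 292 were read in all 3 libraries, 74 in 2 and 16 in 1. In erlotinib, 296 of the 382 symbols (77.5%) had no read at all, 72 were read in 1 library, 13 in 2 and 1 in 3. Over all 20409 symbols with a read, 75.6% had none in erlotinib. Here and below, all symbols include microRNAs, for which the library was designed with fewer sgRNAs each than for genes. Such shares over protein-coding symbols alone are not given. The mean DMSO abundance of an SLC symbol, summed over its sgRNAs, had a median of 49.9 CPM, beside 45.6 CPM for the other protein-coding genes. With erlotinib means below the limit of a 0 count set to that limit, averaged over the libraries at 1.36 CPM, the median log2 ratio of erlotinib to DMSO was -4.88 over SLC symbols and -4.64 over all symbols. For the 294 symbols without erlotinib reads whose DMSO mean exceeded that limit, abundance was at least 1.44-fold to at least 111-fold lower, with a median bound of 35.9-fold. Such a bound rests on the DMSO mean alone, so symbols picked for high DMSO abundance have high bounds by that choice.

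In 240 of the 382 SLC symbols (62.8%), every DMSO library lay above every erlotinib library in CPM, against 56.7% of all symbols. In 0 SLC symbols did every erlotinib library lie above every DMSO library, against 0.0392% of all symbols. In 40 SLC symbols (10.5%) the erlotinib mean was above the DMSO mean, beside 12.4% of all symbols.

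At the gene level, 283 of the 382 SLC symbols (74.1%) were lower in erlotinib at an adjusted p under 0.05 in edgeR's quasi-likelihood test on summed counts, against 69.2% of all 20409 symbols tested. None of the 382 was higher, against 0% of all symbols. No SLC symbol was higher at an unadjusted p under 0.05 either, the likelihood ratio test called 302 lower and 0 higher, against 75.7% and 0.0147% of all symbols, and DESeq2 called 297 lower and 1 higher, SLC4A7, against 73.3% and 0.0882% of all. The share of SLC symbols called was thus near the background of the whole screen. Of the 283, 273 had no erlotinib read and 10 had a few, and 236 were read in all 3 DMSO libraries and 47 in 2. Of the 99 not called, 76 had erlotinib reads. The other 23 had none, with a median DMSO abundance of 10.95 CPM against 51.4 CPM in the called symbols, and none of the 23 was read in all 3 DMSO libraries. The fitted median log2 fold change was -11.55 over SLC symbols and -11.28 over all symbols. It depends on the value assumed for a count of 0 and on the scaling: with library totals alone it was -9.63 and -9.32. The SLC median stayed 0.27 to 0.31 below that of all symbols under the 5 scalings tried, while the number of SLC symbols fitted above DMSO went from 11 to 40. When the fit also held a term for the replicate number, 0 SLC symbols passed the threshold, against 0 of all 20409 symbols. Same-numbered libraries did not deviate together, but with few sgRNAs read under erlotinib such correlations could hardly show a pairing. Beyond the shared forward primer, it is not known whether the number pairs them.

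At the sgRNA level, no SLC sgRNA passed an adjusted p of 0.05 in edgeR's quasi-likelihood test, and the share called over all 74555 sgRNAs tested was also 0%. The lowest adjusted p of the 1492 SLC sgRNAs tested was 0.0998. At an unadjusted p under 0.05, 515 SLC sgRNAs (34.5%) were lower, against 31.2% of all, and 8 (0.536%) were higher, against 0.699% of all. Of the 1492, 1471 had a DMSO read and 21 were tested through erlotinib reads alone. Shares among the tested sgRNAs thus favour lower calls and are no support for a loss under erlotinib. Without a filter the same 515 were lower, of 2081 SLC sgRNAs tested. The likelihood ratio test gave 603 lower (40.4%), against 36.6%, and 8 higher (0.536%), against 0.84%, and again none after adjustment. DESeq2 called 50 lower and 3 higher after adjustment, against 3.49% and 0.203% of all. The quasi-likelihood count of 0 became 289 of 1286 (22.5%) when DMSO 2 was left out, against 19.3% of all sgRNAs tested, and 311 of 1255 (24.8%) when DMSO 3 was left out, against 23.4%. The sgRNAs of smallest p that were lower, against SLCO6A1, SLC22A6, SLC4A9, SLC20A1 and SLC25A5, had DMSO reads only. The SLC22A6 sgRNA, against the renal organic anion carrier OAT1, had 429, 19 and 25 reads in DMSO 1, 2 and 3 (adjusted p = 0.0998 in edgeR's quasi-likelihood test). The one against SLC4A9 had 104, 169 and 62. The sgRNAs of smallest p that were higher, against SLC20A2, SLC30A4, SLCO5A1, SLC25A23 and SLC30A8, had no DMSO read, and their erlotinib reads came from 1 library almost alone. The SLC30A4 sgRNA shown above had 469, 0 and 0 reads and the SLC25A23 sgRNA had 1360, 0 and 0.

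Mitochondrial carriers were the largest single family, with 48 SLC25 symbols and 261 sgRNAs. Their detection was 40.6%, 32.95% and 32.2% in DMSO 1, 2 and 3 and 1.92%, 1.53% and 1.92% in the erlotinib libraries. Of the 48 symbols, 36 (75%) were lower in erlotinib, against 69.2% of all symbols, and 12 did not pass the test. In 38 (79.2%, against 75.6% of all symbols) there was no erlotinib read, and the median log2 ratio with values below the limit set to it was -4.86, beside -4.64 over all symbols. SLC25A1, the citrate carrier that supplies cytosolic acetyl-CoA, had 347, 204 and 262 reads in DMSO and none in erlotinib, at least 83.6-fold lower (adjusted p = 0.00385, edgeR quasi-likelihood test). SLC25A12, the aspartate-glutamate carrier, had 724, 78 and 223 reads in DMSO and 0, 205 and 0 in erlotinib, so the groups overlapped in CPM (adjusted p = 0.216, edgeR).

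Among the low SLC25 symbols, SLC25A46, an outer-membrane protein linked to mitochondrial shape, had 25 DMSO reads from 1 of its 6 sgRNAs, all in DMSO 1, and none in erlotinib. SLC25A25, an ATP-Mg and phosphate carrier, had 103 reads in DMSO 1 alone and 400 in erlotinib 3 alone. SLC25A3, which brings phosphate into the matrix for ATP synthesis, had 114, 71 and 27 reads in DMSO and none in erlotinib (adjusted p = 0.00688, edgeR). SLC25A39, which imports glutathione, had 539, 55 and 40 in DMSO and none in erlotinib (adjusted p = 0.00438, edgeR). Its paralogue SLC25A40 was of the other kind, with 0, 215 and 86 in DMSO and 0, 1172 and 2 in erlotinib (adjusted p = 0.875, edgeR). SLC25A5, an ADP/ATP translocase, had 76, 179 and 232 in DMSO and none in erlotinib.

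The amino acid carriers SLC1, SLC7 and SLC38 had 31 symbols and 164 sgRNAs. Detection in DMSO was uneven between libraries, at 41.5%, 26.2% and 39.6%, and was 1.83%, 1.22% and 1.22% in erlotinib. Of the 31 symbols, 21 (67.7%, against 69.2% of all symbols) were lower in erlotinib, 10 did not pass, and 26 (83.9%, against 75.6%) had no erlotinib read. SLC7A5, the leucine carrier LAT1, was the most abundant in DMSO, with 794, 150 and 162 reads from all 5 of its sgRNAs and none in erlotinib, at least 87.7-fold lower (adjusted p = 0.00393, edgeR). Its heavy-chain partner SLC3A2, which belongs to another family, had 145, 22 and 100 reads in DMSO and none in erlotinib (adjusted p = 0.00561, edgeR). SLC38A5, a glutamine carrier, had 261, 141 and 237 and none. At the low end, SLC7A10, a small neutral amino acid carrier, had 0, 92 and 21 DMSO reads (adjusted p = 0.0507, edgeR) and SLC7A14 had 250, 0 and 0 (adjusted p = 0.0767, edgeR). Both had no erlotinib read, and neither passed the test.

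The same group held 3 of the 10 symbols with the highest erlotinib means. SLC38A8, an amino acid carrier of the retina, had 203, 37 and 26 reads in DMSO and 0, 0 and 12369 in erlotinib, of which 12368 came from the sgRNA shown above and 1 from a second sgRNA that shares 15 bases with it on the opposite strand. SLC7A6, the light chain y+LAT2, had 194, 0 and 37 in DMSO and 0, 3358 and 0 in erlotinib. SLC38A6 had 75, 58 and 77 in DMSO and 3283, 406 and 0 in erlotinib, all from 1 of its 6 sgRNAs. In none of the 3 did the libraries of one condition all exceed those of the other, and their adjusted p-values were 0.515, 0.625 and 0.565 in edgeR's quasi-likelihood test. Without erlotinib 3, which held all its erlotinib reads, SLC38A8 was fitted as lower in erlotinib (adjusted p = 0.0135, edgeR).

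The zinc carriers SLC30 and SLC39 had 24 symbols and 131 sgRNAs, with detection of 40.5%, 29.01% and 35.1% in DMSO. In erlotinib 5 of the 131 were read in library 1, 2 in library 2 and none in library 3. Of the 24 symbols, 19 (79.2%, against 69.2% of all symbols) were lower in erlotinib and 5 did not pass. The number without an erlotinib read was also 19 (79.2%, against 75.6% of all symbols). SLC30A8, the zinc carrier of insulin granules, was the most abundant of all SLC symbols in DMSO, with 974, 217 and 230 reads and a mean of 158 CPM ± 65.8 (SD, n = 3). In erlotinib it had 1, 292 and 0 reads, all from 1 sgRNA that had no DMSO read (gene adjusted p = 0.21, edgeR). SLC39A5 had 275, 237 and 164 DMSO reads and none in erlotinib, at least 67.8-fold lower (adjusted p = 0.00385, edgeR).

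SLC39A6 and SLC30A5 were the least abundant zinc carriers with 4 or more sgRNAs, with 47, 0 and 80 and with 190, 0 and 26 DMSO reads, none in erlotinib, and adjusted p-values of 0.045 and 0.0419 in edgeR. SLC39A7, which releases zinc from the endoplasmic reticulum, had the lowest DMSO mean of all SLC symbols: a single read in DMSO 3 over its 3 listed sgRNAs and none in erlotinib. That count is within the limit of a 0 count, so no fold change can be given for it. SLC30A4, an endosomal zinc carrier, had 77, 147 and 199 DMSO reads and 486, 0 and 0 in erlotinib, with 469 of the 486 from the sgRNA not read in DMSO.

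The 12 SLCO symbols had 66 sgRNAs. Detection was 39.4%, 33.3% and 31.8% in DMSO, and 2, 3 and 0 sgRNAs were read in the erlotinib libraries. Of the 12, 9 (75%, against 69.2% of all symbols) were lower in erlotinib, and the same number had no erlotinib read, against 75.6% of all symbols. SLCO1C1, a thyroxine carrier, had 441, 241 and 96 DMSO reads, and SLCO1A2 had 235, 335 and 81. Neither had an erlotinib read, and both had an adjusted p of 0.00385 in edgeR. The lowest were SLCO1B7 with 81, 53 and 71 and SLCO4A1 with 257, 0 and 23, both also unread in erlotinib (adjusted p = 0.00557 and 0.0384, edgeR). SLCO5A1 went the other way in its mean, with 102, 175 and 31 reads in DMSO and 2, 874 and 0 in erlotinib from 2 sgRNAs (adjusted p = 0.803, edgeR).

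The organic ion and drug carriers SLC22 and SLC47 had 26 symbols and 148 sgRNAs, with DMSO detection nearly level across libraries at 37.8%, 36.5% and 38.5%. In erlotinib detection was 2.03%, 2.70% and 3.38%. Of the 26 symbols, 16 (61.5%, against 69.2% of all symbols) were lower in erlotinib and 10 did not pass. In 15 (57.7%, against 75.6% of all symbols) there was no erlotinib read. SLC22A18 had 867, 261 and 51 DMSO reads and none in erlotinib, at least 86.9-fold lower (adjusted p = 0.00485, edgeR), and SLC22A13, a urate and nicotinate carrier, had 582, 0 and 221 and none (adjusted p = 0.029, edgeR). SLC22A9 had 56 reads in DMSO 1 alone and 52 in erlotinib 3 alone, and SLC22A24 had 101 in DMSO 2 alone. SLC47A2, a proton-coupled drug exporter of the kidney, had 151, 260 and 126 in DMSO and 0, 0 and 8780 in erlotinib. The 8780 reads were 0.263% of the library (Wilson 95% interval 0.258% to 0.269%) and came from the sgRNA shown above, which had 70, 153 and 98 reads in DMSO. Joined with SLCO, the drug carriers made 38 symbols, of which 25 were lower, or 65.8% against 69.2% of all symbols. No erlotinib read was found in 24 of the 38 (63.2%, against 75.6% of all symbols).

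Over all family groups, DMSO detection ran from 32.1% ± 4.66 in the phosphate, copper and iron carriers (SLC11, SLC20, SLC31, SLC34, SLC40) to 44.4% ± 8.45 in the monocarboxylate carriers (SLC16). The gap of 12.3 percentage points between these ends became 19.7 without DMSO 2 and 7.83 without DMSO 3. Neighbours in the order of group means differed by less than the larger SD of the pair, and in DMSO 2 the SLC16 share of 34.7% was below the 37.0% of the phosphate, copper and iron carriers. The ion and pH carriers (SLC4, SLC8, SLC9, SLC12, SLC24, SLC26) had 47 of 56 symbols lower (83.9%), the sugar carriers (SLC2, SLC5, SLC45) 25 of 31 (80.6%), and the vitamin and nucleoside carriers 17 of 19 (89.5%), beside 69.2% of all symbols. The phosphate, copper and iron carriers had 4 of 10 lower (40%), and 6 of the 10 had no erlotinib read (60%, against 75.6% of all symbols). Differences between the groups in these shares were not tested. In this group both SLC20 phosphate carriers were read under erlotinib, SLC20A1 with 0, 0 and 1367 reads after 441, 111 and 260 in DMSO, and SLC20A2 with 0, 506 and 0 after 0, 130 and 0. The nucleotide sugar carriers (SLC35) had 21 of 28 lower (75%) and the monocarboxylate carriers 10 of 14 (71.4%).

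A list of 17 carriers of nutrients and metals on which many cultured cells depend held 89 sgRNAs, with DMSO detection of 37.1% ± 5.62 (SD, n = 3) against 37.3% ± 3.77 for the other SLC sgRNAs. Of the 17 symbols, 13 (76.5%) were lower in erlotinib, beside 74.0% of the other SLC symbols and 69.2% of all symbols. The median log2 ratio with values below the limit set to it was -4.72, beside -4.89 over the other SLC symbols and -4.64 over all symbols. SLC2A1, the glucose carrier GLUT1, had 101, 196 and 114 DMSO reads from 4 of 6 sgRNAs and none in erlotinib (adjusted p = 0.00385, edgeR). SLC1A5, the glutamine carrier ASCT2, had 142, 187 and 0 and none (adjusted p = 0.0296, edgeR). SLC31A1, which imports copper, had 115, 134 and 30 and none (adjusted p = 0.00464, edgeR). The cofactor carriers SLC19A1 (folate), SLC5A6 (biotin and pantothenate) and SLC52A2 (riboflavin) had DMSO means of 16.95, 40.8 and 43.3 CPM, no erlotinib read, and were lower, as were SLC25A26, which brings S-adenosylmethionine into mitochondria, and the zinc carriers SLC30A9 and SLC39A10. The 4 that did not pass were SLC4A7, SLC16A1, SLC20A1 and SLC39A7. SLC16A1, the lactate carrier MCT1, had 168, 176 and 108 DMSO reads and 1032, 0 and 0 in erlotinib (adjusted p = 0.677, edgeR).

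SLC4A7, a sodium-bicarbonate cotransporter that raises intracellular pH, had the highest erlotinib mean of all SLC symbols, at 2539 CPM. Its 3413, 10445 and 147 erlotinib reads all came from the sgRNA shown first, which had 0, 0 and 85 reads in DMSO. In erlotinib 2 this sgRNA held 0.589% of the library (Wilson 95% interval 0.578% to 0.600%) and was the 26th most abundant of all listed sgRNAs. It was 1 of 15 targeted sgRNAs in the whole screen read in all 3 erlotinib libraries, out of 5672 read in any. The other SLC4A7 sgRNAs that were read, with 323 and 40 reads together in DMSO 1 and DMSO 3, had none in erlotinib, and 2 of them share 16 bases on opposite strands. The gene total was 323, 0 and 125 in DMSO, so erlotinib 3, at 147 reads, did not exceed all DMSO libraries in CPM. The difference did not pass edgeR's quasi-likelihood test (log2 fold change 2.87, adjusted p = 0.518) and passed in DESeq2 (adjusted p = 0.0275). The fitted fold change depended on the scaling and on single libraries, with 4.14 under TMM, 5.63 with library totals and 1.27 without erlotinib 2. Without the sgRNA shown first, the gene had no erlotinib read.

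The remaining symbols with high erlotinib means also rested on single sgRNAs. SLC22A18AS, an antisense transcript and no carrier, had 394, 222 and 42 reads in DMSO and 1, 10765 and 0 in erlotinib (adjusted p = 0.665, edgeR). SLC35A1, which brings CMP-sialic acid into the Golgi, had 232, 0 and 107 in DMSO and 6541, 0 and 318 in erlotinib, where the 318 came from a second sgRNA that had 231 reads in DMSO 1 (adjusted p = 0.597, edgeR). SLC6A5, a glycine carrier of neurons, had 373, 423 and 201 in DMSO, from all 6 sgRNAs, and 0, 0 and 8382 in erlotinib from 1 of them. SLC6A2, the noradrenaline carrier, had 505, 110 and 43 in DMSO and 497, 3136 and 0 in erlotinib, again from 1 sgRNA (adjusted p = 0.85, edgeR). SLC25A41 had 161, 28 and 196 in DMSO and 2787, 0 and 0 in erlotinib. SLC10A5, a bile acid carrier homologue, had 0, 34 and 10 in DMSO and 0, 0 and 3971 in erlotinib, and its fitted log2 fold change of 2.95 (adjusted p = 0.445, edgeR) was the one of smallest p among the SLC symbols fitted above DMSO. Each of these symbols had an erlotinib library without a read, and SLC22A18AS, SLC35A1 and SLC6A2 alone had reads in the other 2. For SLC22A18AS, erlotinib 1 held a single read.

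More than 1 sgRNA was read under erlotinib in 12 SLC symbols, never more than 2. SLC10A4, a vesicular carrier homologue, was even across DMSO, with 605, 350 and 251 reads in DMSO, a mean of 153 CPM ± 9.89 (SD, n = 3), and 0, 82 and 603 in erlotinib (adjusted p = 0.166, edgeR). SLC29A2, a nucleoside carrier, had 0, 67 and 58 in DMSO and 9, 824 and 0 in erlotinib. SLC16A12 had 12, 0 and 329 in erlotinib after 125, 36 and 201 in DMSO, SLC16A14 had 46, 0 and 226 after 247, 100 and 190, and SLC25A33, a pyrimidine nucleotide carrier, had 0, 3 and 302 after 617, 67 and 176. None of these passed the gene-level test.

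The symbols of smallest gene-level p were SLC9A3R1, SLC27A3, SLC18A3, SLC4A1AP and SLC16A8, all with an adjusted p of 0.00385 in edgeR and all without an erlotinib read. SLC18A3, the vesicular acetylcholine carrier, had 221, 135 and 141 DMSO reads from all 6 sgRNAs, at least 49.7-fold lower in erlotinib. SLC16A8, a lactate carrier of the retinal pigment epithelium, had 284, 130 and 85, and SLC27A3, an acyl-CoA synthetase of the fatty acid carrier family, had 230, 177 and 104. The DMSO libraries lay close together for SLC4A1AP, at 81.5 CPM ± 5.38, and for SLC9A3R1, at 62.8 CPM ± 6.53 (SD, n = 3), both symbols of proteins that are not carriers.

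The most abundant SLC sgRNAs read in all 3 DMSO libraries were against SLC27A6, a fatty acid carrier of the heart, SLC24A4, a potassium-dependent sodium-calcium exchanger, SLC44A4, a choline-family carrier, SLC30A8 and SLC39A5. The SLC27A6 sgRNA had 611, 138 and 154 DMSO reads, the SLC24A4 sgRNA 232, 144 and 190, the SLC44A4 sgRNA 82, 231 and 181, and the SLC39A5 sgRNA 275, 173 and 76. None had an erlotinib read. As genes, SLC27A6, SLC24A4 and SLC44A4 were at least 91.2-fold, 102-fold and 98.4-fold lower in erlotinib (adjusted p = 0.00391, 0.00403 and 0.00449, edgeR). These genes were named for an abundant DMSO sgRNA, so their high bounds follow from that choice. Over all symbols, 75.6% had no erlotinib read and 69.2% were called lower. Under the separate names of one gene, SLC24A6 had 273, 55 and 172 DMSO reads and 4 in erlotinib 3 (adjusted p = 0.00482, edgeR), while SLC8B1 had 20 in DMSO 2 and none elsewhere (adjusted p = 0.139, edgeR).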

How the data were processed

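The deposited table holds raw read counts of each sgRNA in 6 libraries, which the authors obtained by amplicon sequencing of genomic DNA; the counting program, mismatch allowance and genome build are not given in the sources used here. Columns were matched to samples by their titles. One symbol that the pattern also matches is not reported here. The members and lists were chosen with earlier results of these data known. CPM used the total of all listed sgRNAs. Counts were tested with edgeR 4.0.16 (R 4.3.3): upper-quartile scaling at 0.99, glmQLFit and glmQLFTest on sgRNAs, or on counts summed per symbol, with at least 1 read in any library, non-targeting sgRNAs left out, and Benjamini-Hochberg adjustment over all rows. Alternatives were the likelihood ratio test named in the study's methods, DESeq2 1.42.0, other scalings, other filters, a replicate block and leaving out each library. The study's methods also filter by the median count of a library in at least 2 samples. The median filter used below resembles it, and whether it keeps the same rows is not known. The scripts were tested on simulated data.

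Named symbols were, within SLC25, SLC1 with SLC7 and SLC38, SLC30 with SLC39, SLCO, and SLC22 with SLC47, the 2 highest and 2 lowest DMSO means among symbols with 4 or more sgRNAs. Also named were the 10 highest erlotinib means and symbols with a single sgRNA read in 2 or more erlotinib libraries. Of the symbols with 2 or more sgRNAs read there, the 10 with most reads were taken. Further names were the 5 sgRNAs and the 5 symbols of smallest p in each direction, the nutrient list, and the 5 most abundant sgRNAs read in all 3 DMSO libraries. SLC24A6 and SLC8B1 were chosen after their values were seen. Symbols were matched to RefSeq gene names. The labels describe part of the material differently (polyadenylated RNA, mice), and the screen's protocol was followed. Same-numbered libraries did not deviate together (correlations of deviations -0.00356 to 0.00383). Libraries of different number gave -0.00414 to 0.00361. With so few sgRNAs read under erlotinib, these values cannot decide whether libraries were paired.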

Additional observations from a re-analysis of the deposited data

How the results depend on the processing

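The number of SLC symbols called at the gene level (283) went to 171 of 240 (71.2%, against 67.7% of all symbols) with a filter that kept rows with more reads than the library's median in 2 or more libraries. It went to 0 of 382 with a replicate block, against 0 of all 20409 symbols. There the adjusted p of SLC10A5, SLC38A6 and SLC38A8 was 0.936, 0.996 and 0.435 in edgeR's quasi-likelihood test, with their direction turned. Same-numbered libraries shared a forward primer, and whether they were paired otherwise is not known. With the likelihood ratio test and the replicate block together, chosen after seeing the data, 283 of 382 were called lower, against 14182 of all 20409 symbols. The same 3 symbols turned there, at an adjusted p of 0.901, 0.993 and 0.181. Leaving out each library gave 229 of 378 (without DMSO 1, against 11303 of all 19969 symbols) to 285 of 382 (without erlotinib 2, against 13693 of 20404). The number of SLC sgRNAs called (0) became 53 with DESeq2, 124 of 161 (77.0%, against 75.8% of all sgRNAs) with filterByExpr and 489 of 718 (68.1%, against 65.4%) with the median filter, and 0 to 311 on leaving out each library, 289 without DMSO 2 and 311 without DMSO 3. The cause of these shifts was not tested. With few sgRNAs read under erlotinib, rows passed filterByExpr and the median filter mainly through DMSO reads, for sgRNAs and for symbols. Under the main filter of at least 1 read, SLC sgRNAs also passed mainly through DMSO reads. These filters thus favoured lower calls, and their shares are no support for a loss under erlotinib. Detection of SLC against other sgRNAs in erlotinib (0.861) was 0.901 at 3 or more reads. Against non-targeting sgRNAs it was 0.429, and 0.655 in DMSO. As the starting abundance of the non-targeting sgRNAs is not known here, these ratios do not measure a loss of SLC sgRNAs. The ratio of summed SLC CPM, DMSO over erlotinib, was 1.29, and 3.18 with upper-quartile factors. The most abundant sgRNA of each gene was also taken out, separately in each library, so the sgRNA removed could differ between libraries. This took out nearly all erlotinib reads of SLC4A7, SLC35A1, SLC38A6 and SLC38A8. These 4 were then fitted as lower (adjusted p = 0.0100, 0.0611, 0.142 and 0.123, edgeR). All 361 SLC symbols were fitted as lower there, so this says nothing about these 4. The direction also turned for SLC35A1 and SLC38A6 without erlotinib 1 (0.439 and 0.764) and for SLC38A8 and SLC10A5 without erlotinib 3 (0.0135 and 0.135). Over all single libraries left out, the adjusted p ran from 0.378 to 0.773 for SLC35A1, 0.133 to 0.764 for SLC38A6, 0.0135 to 0.695 for SLC38A8 and 0.135 to 0.626 for SLC10A5. Leaving out the 6 symbols listed above that name no carrier, chosen after seeing the data, moved no count by more than 1.5 times. SLC22A20 and SLC26A10 stayed in for this check. An SLC sgRNA below 3 reads cannot be told from one absent.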
